A study of Rattus norvegicus with 4 samples.

Results

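The genes described here are 32 rat genes of the endoplasmic reticulum (ER) that fold, check and clear secretory proteins, together with the sensors of the unfolded protein response. They were chosen by name for these roles and not by a measured value. Probes on the arrays matched 30 of the 32, and 26 of those 30 were well above background on all 4 arrays. Derl2, a channel protein of ER-associated degradation, and Manf, a secreted ER stress factor, had no matched probe. Across the whole array 16581 genes had a probe with a symbol.

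Messenger RNA was measured in NR8383, a line of rat alveolar macrophages derived by lung lavage, used after 20 passages. The cells were seeded for 48 h in medium with 15% serum and then exposed to 9.25 µg/mL NiZnFe2O4, whose formula is that of a mixed metal oxide, for 4 h. Each of 4 biological replicates gave 100 ng of total RNA to 1 Agilent array labelled with Cy3. The design sets exposed against untreated cells, but untreated arrays were not analysed here, so no value below shows what the exposure changed and no test between groups was made.

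Secretory and membrane proteins enter the ER through the Sec61 channel and fold there with the help of HSP70 and HSP90 chaperones, lectin chaperones and enzymes that form disulphide bonds. When unfolded protein builds up, the sensors IRE1, PERK and ATF6 lose the chaperone BiP, slow translation and switch on genes for chaperones and for ER-associated degradation (ERAD), the removal of misfolded protein to the proteasome. Macrophages secrete cytokines and lysosomal enzymes and keep many of these genes on without added stress.

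Some of the promoters carry a sequence through which ATF6 and XBP1 are known to act, and these are shown here because the response is best known through them. The ER stress response element (ERSE) was searched as CCAAT and CCACG with any 9 bases between them, and its variant ERSE-II as ATTGG and CCACG with any 1 base between them, on both strands, in the RefSeq promoters of the rat assembly GRCr8, which span 250 bases before to 50 after each gene's start. Of the 32 genes, 25 had a promoter in that set. ERSE lay in 7 of the 25 (28%), against 21 of 27457 genes (0.0765%), or 22 of all 33469 promoters (0.0657%). ERSE-II lay in 3 of the 25 (12%), against 17 genes (0.0619%), or 0.0508% of promoters. The 32 genes were chosen by name for their roles in this response, so these shares describe the set and are no test. Windows of 9 of these 10 genes follow 5′ to 3′ on the gene's strand, with the match in capitals.
Hspa5: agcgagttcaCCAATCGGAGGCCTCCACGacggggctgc
Hsp90b1, upstream copy: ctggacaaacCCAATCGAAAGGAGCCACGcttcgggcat
Hsp90b1, downstream copy: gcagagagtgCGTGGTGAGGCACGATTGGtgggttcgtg
Xbp1: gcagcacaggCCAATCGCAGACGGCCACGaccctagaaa
Dnajc3: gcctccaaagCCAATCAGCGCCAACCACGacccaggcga
Calr: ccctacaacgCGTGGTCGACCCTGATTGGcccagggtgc
Creld2: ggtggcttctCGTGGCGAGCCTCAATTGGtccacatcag
Herpud1, ERSE-II: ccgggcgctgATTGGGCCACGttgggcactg
Hyou1, ERSE-II, upstream copy: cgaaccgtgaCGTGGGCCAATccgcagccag
Hyou1, ERSE-II, downstream copy: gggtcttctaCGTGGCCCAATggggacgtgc
Dnajb11, ERSE-II: ccaggcggcgATTGGCCCACG

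In GRCr8 the Hspa5 window is chr3:38452963-38453001 on the plus strand and its match spans bases -43 to -25 from the start site. The Xbp1 window is chr14:84604548-84604586 on the plus strand, with the match at bases -65 to -47. Both thus lie close upstream of the start. The Hsp90b1 windows are chr7:23012441-23012479 and chr7:23012337-23012375 on the minus strand, and the gene carries its 2 copies in opposite orientation. Hyou1 also carries 2 copies of ERSE-II, at chr8:53602684-53602714 and chr8:53602784-53602814 on the plus strand. The match in Dnajb11, at chr11:91672800-91672820 on the minus strand, runs up to the start site. The windows of Calr (chr19:40213125-40213163, plus), Creld2 (chr7:121789229-121789267, plus), Dnajc3 (chr15:102432524-102432562, plus) and Herpud1 (chr19:10614811-10614841, minus) lie farther from the start than those of Hspa5 and Xbp1. Among the windows shown, the match of Calr begins farthest out, at base -232. The upstream copies of Hyou1 and Hsp90b1 come next, and begin at bases -188 and -176.

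For Hspa5, which encodes BiP and is the standard marker of the response, the 150 bases before the start (chr3:38452866-38453015, plus) are shown with the CCAAT box and the CCACG of its ERSE in capitals.
Hspa5, upstream stretch: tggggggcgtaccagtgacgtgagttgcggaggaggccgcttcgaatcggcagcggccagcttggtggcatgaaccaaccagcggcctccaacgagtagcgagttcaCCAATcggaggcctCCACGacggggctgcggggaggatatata
This stretch holds 1 CCAAT and 1 CCACG, both forward and both within the ERSE. Only exact letters were searched, so inexact copies of the element are not counted. The short parts alone are common: on either strand, CCAAT lay in 37.5% of promoters, or 39.6% of genes, and CCACG in 31.6% of promoters, or 34.1% of genes, against 21 and 20 of the 25 genes. The XBP1-type element TGACGTGG lay in 0.595% of promoters and in those of Hyou1 and Vcp, and in Hyou1 it overlaps the upstream ERSE-II. The ATF4-type element TGATGCAA lay in 0.795% of promoters and, among the 25, only in that of Herpud1. A match describes the letters and shows no binding.

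Each array held 58717 spots, of which 21812 to 24981 were well above background, and none of the spots of these genes was saturated. Pairs of arrays correlated at 0.975 to 0.986 over the levels of genes above background on all 4 arrays, which leaves out dim genes. On replicate 2 part of the array had lowered signals, which touched Hsp90b1 and Ufd1 among these genes, as described with their values. The number of arrays limits the precision of every spread given here. The cells carried the macrophage markers: 12 of 12, among them Cd68, Csf1r and Spi1, were above background on all 4 arrays, with a summed signal of 50230 to 82897 intensity units before scaling. Among measured markers of other cells, 0 of 5 for lung epithelium, 0 of 3 for lymphocytes, 0 of 4 for plasma cells, 0 of 4 for fibroblasts and 0 of 3 for granulocytes were. Of 3 endothelial markers only Cdh5 passed, and no list of other cells summed to more than 50.0 units on an array.

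Detection of the ER genes was high: 26 of 30 measured genes (86.7%) passed on all 4 arrays, where 38.7% of all genes did. All measured disulphide isomerases (4 of 4), ERAD genes (7 of 7), translocon genes (3 of 3) and the remaining ER factors (2 of 2) passed. So did 6 of 7 HSP70 and HSP90 chaperones with their cochaperones, 2 of 3 genes of glycan quality control and 2 of 4 sensors and transcription factors. Levels below are log2 processed signals minus the 75th percentile of the array, so 0 is that percentile. They depend on the probe's sequence and are compared across arrays within a gene, not between genes.

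**Figure D1:**
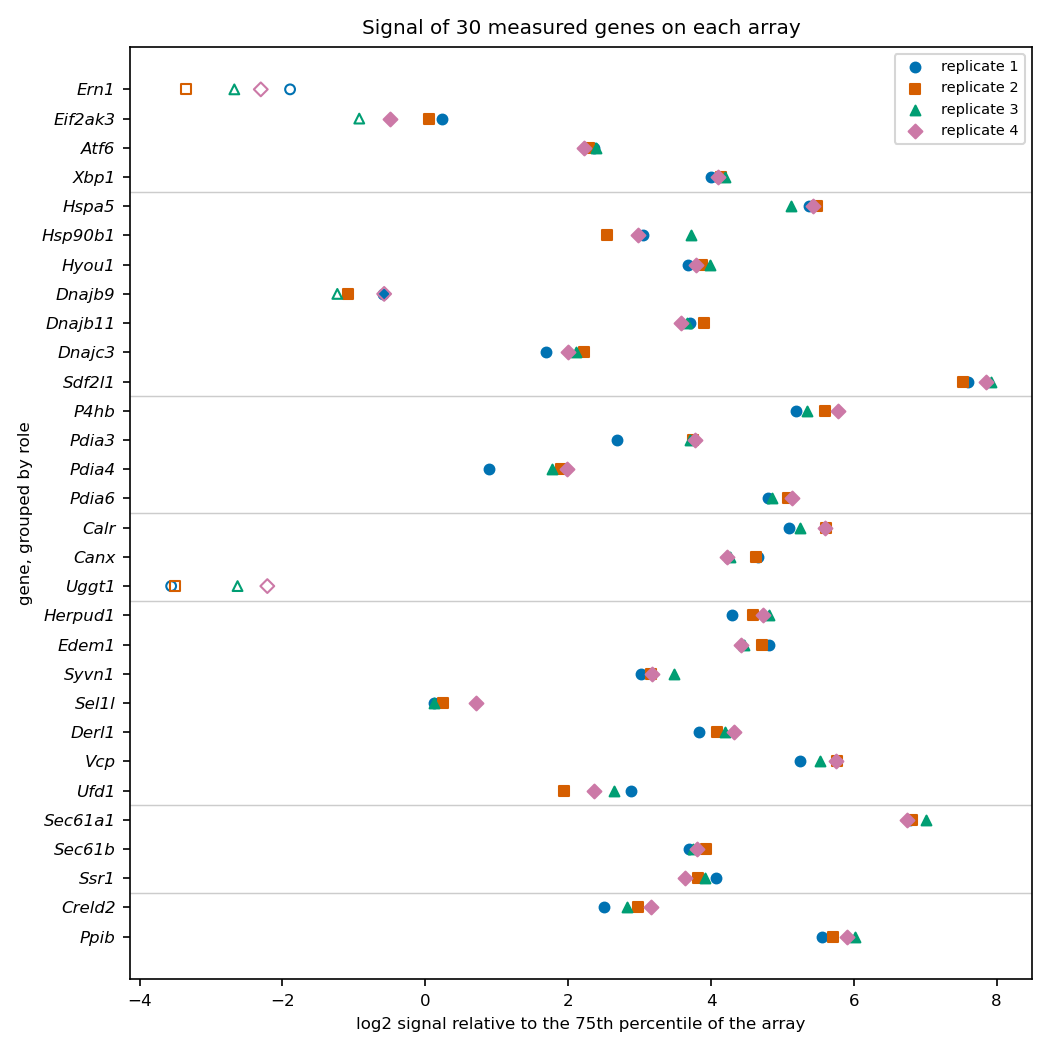
Log2 signal of 30 measured genes, relative to the 75th percentile of each array (x axis), by gene grouped by role (y axis). Each symbol is 1 array, and open symbols are arrays on which the gene was not well above background, which occur only for Ern1, Eif2ak3, Dnajb9 and Uggt1.

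Both stress kinases of the response were missed on at least 1 array. Ern1, which encodes the kinase and RNase IRE1, was not well above background on any array, with unscaled intensities of 11.2, 3.2, 3.68 and 5.01 on replicates 1 to 4. The dimmest probe that did pass had 9.23 to 13.0 units, depending on the array. The Ern1 signals of replicates 2 to 4 lay below that level on their arrays, where values have no order. Eif2ak3, which encodes the translation-blocking kinase PERK, gave 49.1, 33.8, 12.4 and 17.5 units and missed the flag only on replicate 3. A further Eif2ak3 probe passed on no array. Thus the brighter Eif2ak3 probe read near the detection limit, and the 1 Ern1 probe passed on no array. A probe can miss a detected gene: 1 Canx probe passed on no array while the other passed on all 4.

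Atf6, the membrane-bound transcription factor cleaved in the Golgi, stood at 2.36, 2.30, 2.39 and 2.22 on replicates 1 to 4, a mean of 2.32 ± 0.07 (SD, n = 4). Its highest and lowest arrays differed 1.12-fold, and 3.47% of the 6418 genes above background had a lower SD. This steadiness rests on the brighter of 2 probes, and on the processing, as given below. The other probe read 2.25, 2.35, 1.94 and 1.43, with an SD of 0.41 and its low value on replicate 4. Xbp1, the transcription factor whose mRNA IRE1 splices, stood at 4.00, 4.14, 4.19 and 4.10 (4.11 ± 0.08, SD, n = 4), and 4.85% of genes had a lower SD. Replicate 1 was its lowest array. After quantile normalization the SDs of Atf6 and Xbp1 were 0.10 and 0.07. With normexp background correction they were 0.16 and 0.18, beside a median of 0.19 over all genes above background. Without scaling they were 0.40 and 0.32, beside 0.385. What the Xbp1 probe reads is total mRNA, and splicing was not measured.

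Hspa5, whose product BiP binds both unfolded protein and the sensors, stood at 5.37, 5.48, 5.12 and 5.43 (5.35 ± 0.16, SD, n = 4). Its probe was printed 10 times on each array, so the error within an array is known: the pooled SD between spots was 0.07. On replicate 3 the 10 spots ran from 5.00 to 5.24. On the remaining arrays the lowest spots were 5.31, 5.44 and 5.30, so replicate 3 lay below every spot of the others. The spots leave out the error between cultures and arrays, and 28.0% of all genes had a lower SD over arrays. Without replicate 3 its SD was 0.05.

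Hsp90b1, the ER form of HSP90 (GRP94), stood at 3.05, 2.54, 3.72 and 2.98 (3.07 ± 0.49, SD, n = 4), a spread that 93.8% of genes lay below. Its probe had 2 spots per array, and these disagreed. The first read 3.01, 3.59, 3.72 and 3.34, with an SD of 0.31. The second read 3.09, 1.49, 3.72 and 2.61, with an SD of 0.94. The spots thus agreed on replicates 1 and 3 and parted on replicates 2 and 4. On replicate 2 the median deviation of the spots around the second one, within 10 rows and columns, was -1.03, against -0.03 around the first. With such local trends subtracted, the SD of Hsp90b1 was 0.32.

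The cochaperones of BiP that were above background varied less than Hsp90b1, though Dnajc3 (SD 0.23) and Sdf2l1 (SD 0.19) varied more than Hspa5 (SD 0.16). Hyou1, the large HSP70-related exchange factor, stood at 3.67, 3.87, 3.99 and 3.79 (3.83 ± 0.13, SD, n = 4), the smallest SD among the chaperones. Dnajb11, a J protein that brings unfolded clients to BiP, stood at 3.70, 3.91, 3.67 and 3.58 (3.71 ± 0.14). Dnajc3, the ER J protein also called P58IPK, was lowest on replicate 1, at 1.69 against 2.22, 2.11 and 2.00. Sdf2l1, a partner of ER J proteins, stood at 7.59, 7.53, 7.92 and 7.84 (7.72 ± 0.19), with replicates 3 and 4 above 1 and 2 on both of its spots. That order comes with the scaling: the unscaled signals of Sdf2l1 were 8043, 6052, 5698 and 5692 units, lowest on replicates 3 and 4. After quantile normalization its SD was 0.10, and that of Hspa5 was 0.20. Dnajb9, the J protein ERdj4 and a known XBP1 target, was the only chaperone not above background throughout. Its unscaled signals were 27.7, 15.4, 10.0 and 16.6 units and passed on replicates 1 and 2.

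The disulphide isomerases shared a low array: all 4 were lowest on replicate 1, where 37.4% of all genes had their lowest value. Pdia3 (ERp57), the isomerase that works with the lectin chaperones, stood at 2.68 on replicate 1 and at 3.75, 3.70 and 3.78 on the others (3.48 ± 0.53, SD, n = 4). Replicate 1 was thus apart from 3 arrays that lay within 0.08 of each other. Its Dixon ratio, the gap of the extreme array divided by the range, was 0.93 and above Dixon's critical value at the 5% level. Of the 26 genes, only Pdia3 passed that value, beside 4.91% of all genes. Without replicate 1 its SD was 0.04.

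Pdia4 (ERp72) had the same shape, at 0.89 on replicate 1 against 1.90, 1.77 and 1.98 (1.64 ± 0.50, SD, n = 4), with a Dixon ratio of 0.81 that stays under the critical value. That ratio was 0.83 after quantile normalization, just above the critical value, and without replicate 1 its SD was 0.10. Pdia3 and Pdia4 were the 2 of 26 genes with an SD above 0.5, which 5.73% of all genes had. P4hb, the founding protein disulphide isomerase, stood at 5.19, 5.60, 5.34 and 5.77 (5.48 ± 0.26). Pdia6 (P5) stood at 4.79, 5.08, 4.85 and 5.13 (4.96 ± 0.17), the smallest SD of the 4. In both of these genes replicates 1 and 3 were low and replicates 2 and 4 high.

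**Figure D2:**
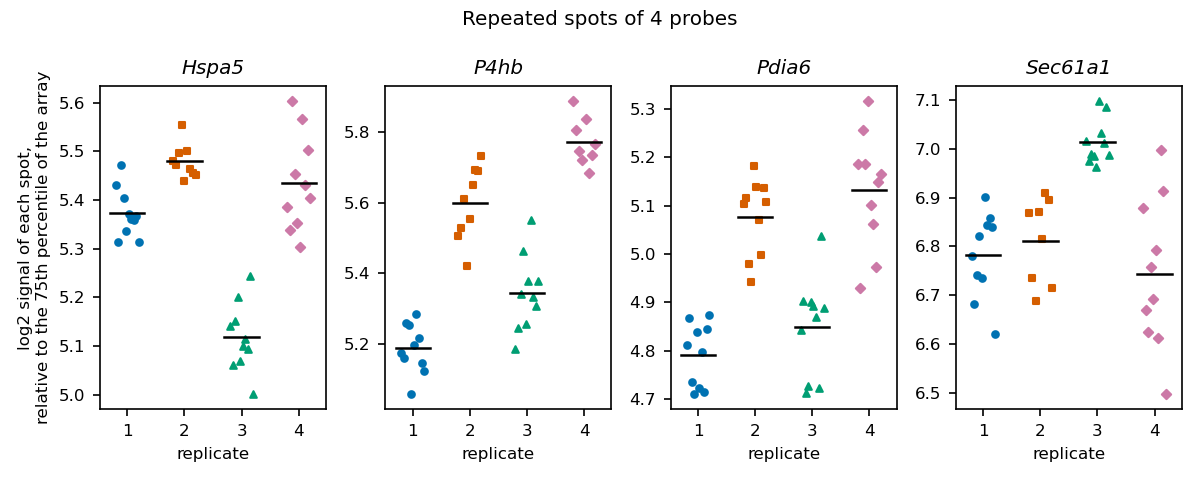
Log2 signal, relative to the 75th percentile of the array (y axes, each on its own scale), of the single spots of 4 probes printed 10 times per array (x axis, replicate), with the mean as a line. Hspa5 is lowest on replicate 3, P4hb and Pdia6 are low on replicates 1 and 3, and Sec61a1 is highest on replicate 3.

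Repeated spots bear on this for P4hb and Pdia6, whose probes were each printed 10 times per array. Pdia3 and Pdia4 each rest on 1 probe with 1 spot per array, so their error within an array is not known. For P4hb and Pdia6 the pooled SD between spots was 0.09 in both, against SDs between arrays of 0.26 and 0.17. For P4hb the spots of replicate 1 ran from 5.06 to 5.29, below all those of replicate 2 (5.42 to 5.73) and replicate 4 (5.68 to 5.89), and overlapped those of replicate 3 (5.19 to 5.55). For Pdia6 the spots of replicate 1 (4.71 to 4.87) likewise lay below those of replicates 2 and 4, which began at 4.94 and 4.93. The spots show only the error within an array, and leave out that of the scaling and of the cultures. Without scaling Pdia6 lay higher on replicate 1 than on replicate 4 (0.31 and -0.10 from its mean), and so it did with normexp correction (0.11 and -0.02). Over the 974 probes with 10 spots the median SDs were 0.08 within and 0.17 between arrays.

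The place of replicate 1 depends on the scaling for some of these isomerases. Pdia3 and Pdia4 were lowest on replicate 1 under every scaling tried, but by less without scaling (-0.32 and -0.27 from their means) and with normexp background correction (-0.43 and -0.33) than as reported (-0.80 and -0.75). P4hb changed from -0.29 on replicate 1 to 0.19 without scaling and to -0.01 with normexp correction, and replicate 3 was then its lowest array. Pdia6 changed from -0.17 to 0.31 without scaling and to 0.11 with normexp correction, and its lowest array became replicate 3 under both, after quantile normalization and with the percentile taken over detected probes. The Dixon ratio of Pdia3 was 0.51 without scaling and 0.58 with normexp correction, both under the critical value, and 0.87 to 0.96 under the remaining choices that alter its values.

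The lectin chaperones calreticulin and calnexin, which hold glycoproteins during folding, differed in their pattern over the arrays. Calr stood at 5.09, 5.61, 5.25 and 5.60 (5.39 ± 0.26, SD, n = 4), low on replicates 1 and 3 like P4hb. Canx stood at 4.66, 4.63, 4.27 and 4.23 (4.45 ± 0.23), with replicates 1 and 2 high and 3 and 4 low. Uggt1, the enzyme that puts glucose back on misfolded glycoproteins, was above background on no array, with unscaled signals of 3.53, 2.88, 3.80 and 5.34 units.

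The ERAD genes all passed. Herpud1, a membrane scaffold of the degradation complex and a strong target of the response, stood at 4.30, 4.59, 4.81 and 4.73 (4.61 ± 0.23, SD, n = 4), lowest on replicate 1. Syvn1, the ubiquitin ligase HRD1, stood at 3.02, 3.16, 3.48 and 3.17 (3.21 ± 0.19), and its partner Sel1l at 0.12, 0.24, 0.13 and 0.71 (0.30 ± 0.28). The ligase was highest on replicate 3 and its partner on replicate 4. Derl1, a channel protein of the complex, stood at 3.83, 4.08, 4.20 and 4.33 (4.11 ± 0.21). Edem1, which hands misfolded glycoproteins to degradation, stood at 4.81, 4.72, 4.46 and 4.43 (4.61 ± 0.19, the smallest SD of the group), highest on replicate 1. A further Edem1 probe that passed on all 4 arrays read 1.41, 1.84, 1.5 and 2.42, lowest on replicate 1, so the probes of this gene disagree on the pattern.

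Vcp, the ATPase that pulls proteins out of the membrane, stood at 5.24, 5.77, 5.53 and 5.75 (5.57 ± 0.25, SD, n = 4), with replicate 1 lowest. Ufd1, its cofactor, stood at 2.88, 1.95, 2.65 and 2.36 (2.46 ± 0.40), the largest SD of the ERAD genes and one with replicate 1 highest and replicate 2 lowest. The single Ufd1 spot also lay where signals were lowered on replicate 2, with a local median deviation of -0.38, and its SD was 0.24 with local trends subtracted. Hsp90b1 and Ufd1 were the only 2 of the 30 genes with a local deviation on replicate 2 below -0.3. The next lowest value was -0.18.

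At the translocon, Sec61a1, the pore subunit, stood at 6.78, 6.81, 7.01 and 6.74 (6.84 ± 0.12, SD, n = 4). On replicate 3 its 10 spots began at 6.96, above all spots of replicates 1 and 2, which ended at 6.90 and 6.91, and overlapped those of replicate 4. This order depends on the scaling: the unscaled signals were 4584, 3674, 3039 and 2653 units, with replicate 3 below replicates 1 and 2. Sec61b, the small tail-anchored subunit, stood at 3.69, 3.92, 3.75 and 3.80 (3.79 ± 0.10), and 8.99% of all genes had a lower SD. Ssr1, the alpha subunit of the translocon-associated protein complex, stood at 4.08, 3.82, 3.91 and 3.63 (3.86 ± 0.18). Its second probe read 2.56, 2.72, 2.72 and 2.72, so the high value on replicate 1 is that of only 1 of the 2 probes.

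Creld2, a secreted ER stress protein with isomerase activity, stood at 2.50, 2.97, 2.82 and 3.16 (2.86 ± 0.28, SD, n = 4). Ppib, the ER proline isomerase cyclophilin B, stood at 5.55, 5.72, 6.02 and 5.90 (5.79 ± 0.20), and its 2 spots agreed within 0.14 on every array. Both were lowest on replicate 1, though their highest arrays differed. In 6 of the 30 genes there was more than 1 probe. Besides Atf6, Ssr1 and Eif2ak3 these were Canx and Syvn1, each with a further probe above background on no array, and Edem1, whose dimmest probe passed on 2 arrays.

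**Figure D3:**
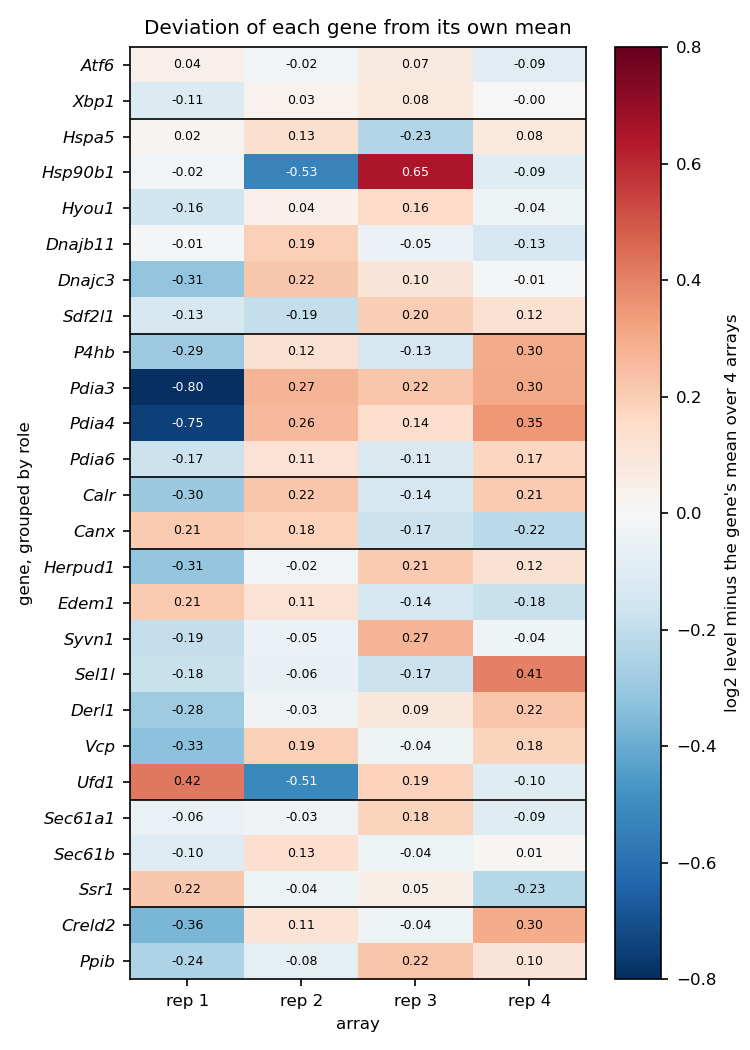
Level of each of the 26 genes above background on each array, as the log2 difference from the gene's mean over 4 arrays (colour and printed value), with genes grouped by role (y axis) and arrays on the x axis. The deepest values are Pdia3 and Pdia4 on replicate 1 (-0.80 and -0.75) and Hsp90b1 and Ufd1 on replicate 2 (-0.53 and -0.51).

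Across the 26 genes, 20 lay below their own mean on replicate 1, beside 59% of all genes, and 16 had their lowest value there, beside 37.4%. The median deviation of the 26 was -0.17 on replicate 1 and 0.08, 0.08 and 0.05 on replicates 2 to 4. Over all genes above background it was -0.06, -0.01, 0.02 and 0.06. With replicate 1 left out, the medians of the 26 on replicates 2 and 3 were -0.0002 and -0.02. Replicate 1 thus stood low in both, and lower for the ER genes, with a difference of -0.11 that became -0.07 without replicate 3, or without replicate 4. The 6 genes above their mean on replicate 1 were Atf6, Hspa5, Canx, Edem1, Ufd1 and Ssr1. On replicates 2 to 4, by contrast, 11, 11 and 12 of the 26 lay below their mean, beside 52.3%, 46.3% and 39.8% of all genes. Replicate 2 held the lowest value of 3 genes, beside 19.1%, and replicate 4 that of 6, beside 21.1%. On replicate 3 only 1 of the 26, Hspa5, had its lowest value, beside 22.4%. Replicate 4 held the highest value of 7 genes, beside 37.1% of all genes, replicate 3 that of 9, beside 24.5%, replicate 2 that of 6, beside 16%, and replicate 1 that of 4, beside 22.3%. In bulk RNA, fewer cells with a transcript and less of it per cell cannot be told apart.

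Replicate 1 was also the brightest array before scaling, with a 75th percentile of 5.38 log2 units against 4.55 to 5.03 for the others, and had the most spots above background. The part of array brightness in the pattern was not tested, and the counts under other scalings were as follows. Without scaling, 2 of the 26 genes were lowest on replicate 1, beside 1.76% of all genes, and the median deviation was 0.32. Quantile normalization left 11 of 26, beside 31.2% of all genes. The sign on replicate 1 therefore turns with the scaling. A single shift per array cannot alter the position against all genes, so that difference also stood at -0.11 without scaling. It was -0.03 with normexp correction, -0.06 with the mean of all probes, -0.09 after quantile normalization and -0.13 with local trends subtracted. This difference was not tested.

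**Figure D4:**
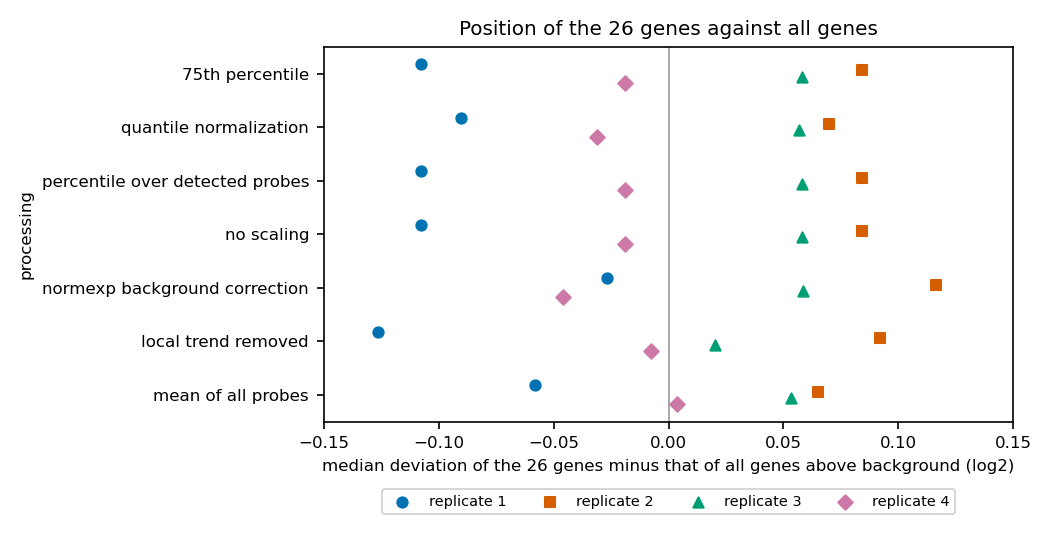
Median deviation of the 26 genes minus that of all genes above background (x axis, log2 units) on each array (symbols), under 7 ways of processing (y axis). Replicate 1 lies left of 0 and replicates 2 and 3 lie right of 0 under all 7. The reported scaling, the percentile over detected probes and no scaling differ only by a shift per array, so their likeness follows by construction. Replicate 4 runs from -0.046 to 0.004, and with normexp correction it lies farther from 0 (-0.046) than replicate 1 (-0.027).

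With the reported scaling, the median spread of the ER genes was close to that of genes in general. Their median SD was 0.21, beside 0.23 over all genes above background, and 14 of the 26 lay below the latter. With normexp correction it was 0.22, beside 0.19, and without replicate 1 it was 0.15, beside 0.20. The highest and lowest arrays of a gene differed 1.12-fold to 2.27-fold. They differed more than 2-fold in 3 genes (11.5%), Hsp90b1, Pdia3 and Pdia4, beside 9.05% of all genes. A difference of more than 1.5-fold was seen in 6 (23.1%), a smaller share than the 39.2% of all genes.

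**Figure D5:**
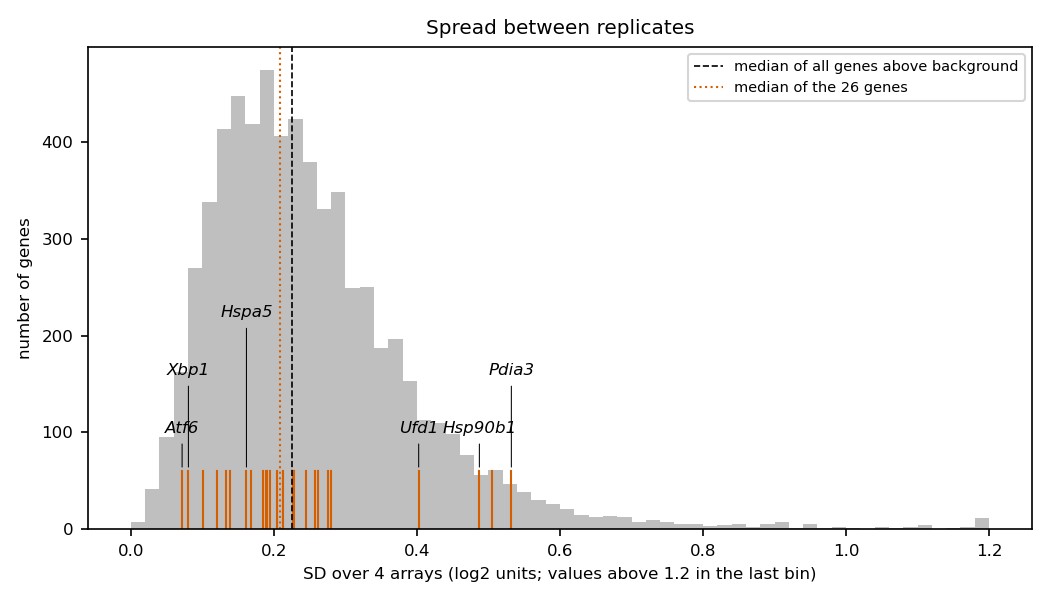
Number of genes above background (y axis) by SD of the log2 level over 4 arrays (x axis, grey bars), with the 26 ER genes as orange ticks and the medians as vertical lines. With the reported scaling, most ticks fall in the body of the distribution. Atf6 and Xbp1 lie at its low end, and Ufd1, Hsp90b1, Pdia4 (the tick without a name) and Pdia3 in its upper tail.

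The 10 genes with an ERSE or ERSE-II were all above background, and so were 11 of the 14 measured genes of the set whose promoter holds neither, beside 38.7% of all genes. The median deviations of the 10 were -0.13, 0.12, 0.02 and -0.01 on replicates 1 to 4, with a median SD of 0.23. Those of the 11 were -0.18, -0.04, 0.05 and 0.10, with a median SD of 0.20. On replicate 1, 8 of the 10 and 8 of the 11 lay below their mean, beside 59% of all genes. The widest gap between the medians was on replicate 2, where 2 of the 10 and 6 of the 11 lay below their mean, beside 52.3% of all genes, and Hsp90b1 and Ufd1 fall in different sets there. No test was made of it.

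Other genes of the pathway, listed by role, were detected nearly as often, 64 of 80 measured (80.0%), beside 38.7% of all genes. That share of all genes also stands beside the count of each list below. All 11 genes of the PERK branch passed. Among them Atf4, the transcription factor made when PERK acts, stood at 6.31, 6.26, 6.25 and 6.14 (6.24 ± 0.07, SD, n = 4). Trib3, a pseudokinase that ATF4 and CHOP induce, stood at 4.66, 5.05, 5.28 and 5.54 (5.13 ± 0.37), lowest on replicate 1. Ddit3, which encodes CHOP, stood at 4.52, 3.13, 4.38 and 4.57 (4.15 ± 0.68), low on replicate 2, where its spot had a local deviation of -0.57. Atf4 thus varied less across the arrays than Trib3 and Ddit3.

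Of the further transducers and their proteases, 5 of 9 passed. Atf6b, the paralogue of Atf6, stood at 1.73, 2.05, 2.58 and 2.63 (2.25 ± 0.43, SD, n = 4). Mbtps1, the Golgi protease that first cuts ATF6, stood at 3.37, 1.44, 3.47 and 3.10 (2.85 ± 0.95), and on replicate 2 its spot had a local deviation of -0.96. The protease of the next cut, Mbtps2, passed on 1 array, as did Yy1, a DNA-binding partner of ATF6. Ern2, the epithelial form of IRE1, and Nfyb, a subunit of the CCAAT-binding factor, passed on none.

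Oxidative folding had 8 of 11 genes above background. Ero1a, the oxidase that recharges the isomerases, stood at 2.11 ± 0.11 (SD, n = 4) and Txndc5, a further isomerase, at 2.76 ± 0.40. Their relatives Ero1b, Pdia2 and Pdia5 passed on no array. The lists for ERAD (12 of 14), glycan addition and trimming (8 of 9) and ER nucleotide exchange and J proteins (5 of 5) were nearly complete. Os9, a lectin that delivers glycoproteins to HRD1, stood at 2.97 ± 0.13, and Rpn1, a subunit of the enzyme that adds glycans, at 6.80 ± 0.09. Erlec1 passed on 2 arrays and Derl3 on 1, and the glycan-adding subunit Stt3a on none.

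The translocon and signal peptidase list had 11 of 14 genes above background. Sec63, the J protein that couples BiP to the translocon, passed on 2 arrays, and the signal peptidase subunits Spcs2 and Spcs3 each on 1. Of the proline isomerases and hydroxylases 4 of 7 passed, while the FK506-binding isomerases Fkbp14 and Fkbp9 and the cyclophilin Ppic passed on none.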

How the data were processed

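All 4 arrays form 1 group, and the headers put them on 1 slide with 1 scan. The deposited values are spot intensities on a linear scale, which the submitters' processing notes credit to version 11.0.1.1 of Agilent Feature Extraction. They are not scaled between arrays, and values near the floor have no order. Control and outlier spots were left out, spots of a probe were averaged as log2, and each array's 75th percentile over probes was subtracted. A probe passed where at least 0.5 of its spots carried the deposited flag for being well above background, a gene where any probe passed on all 4 arrays, and its level is that of its brightest probe. Accessions were named through RefSeq of GRCr8: 21109 of 45598 probes had 1 symbol and 24489 none. On the 78 spots of the ER genes no reading was saturated and 6 were outliers.

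The window of 1 promoter match is not reported here. Genes and lists were chosen with earlier results of these data known. Values are given for sensors, main chaperones, undetected genes, the smallest and largest SD of each role and genes past the Dixon value, and for 10 chosen pathway genes and those detected on under 4 arrays. Alternatives covered flags, probes, scaling, normexp (offset 50) in limma 3.58.1 under R 4.3.3, a local trend and leaving out replicates. The procedures were written for Python 3.11.15 (pandas 2.3.3, numpy 2.4.6, scipy 1.17.1, matplotlib 3.10.9) and tested on simulated data.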

Additional observations from a re-analysis of the deposited data

Results flagged for a closer look

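Among 91 sets of 4 values that were examined (26 ER genes, 64 pathway genes and the median of the ER genes), 5 had 1 array apart from the other 3 by Dixon's ratio. Chance gives about 5% of such sets, and 4.91% of all genes above background had one. Pdia3, with a ratio of 0.9272, was low on replicate 1. Ddit3, with a ratio of 0.8631, was low on replicate 2, where its single spot had a local deviation of -0.57. Ube2g2, a ubiquitin-conjugating enzyme of ERAD, had a ratio of 0.8602 and was high on replicate 4, at 4.70 against 4.33 to 4.39. Tram1, a translocon-associated membrane protein, had a ratio of 0.8624 and was low on replicate 4, at 2.09 against 2.82 to 2.94. The median deviation of the 26 ER genes had a ratio of 0.872 and was low on replicate 1. That ratio is for the reported scaling only. After quantile normalization the medians were -0.09, 0.09, 0.06 and -0.03 on replicates 1 to 4, and without scaling replicate 1 was highest, at 0.32.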

How the results depend on the processing

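No paired analysis was possible because the labels give 1 group. The 26 ER genes above background became 28 with the looser flag for signal above background (50.9% of all genes), 27 with 3 of 4 arrays (41.5%) and 23 when every probe had to pass (33.2%). The 64 pathway genes became 72, 64 and 61. Without scaling the median SD rose to 0.337, beside 0.385 over all genes, since array brightness then stays in the values. The median deviations without scaling were 0.32, 0.21, -0.27 and -0.22 on replicates 1 to 4. With normexp correction those of replicates 1, 3 and 4 were 0.10, -0.056 and -0.11, and the cause was not tested. Leaving out a replicate gave a median SD of 0.151 to 0.235, and 26 to 27 detected genes beside 38.8% to 40.1% of all genes. The median deviations were then -0.19 to -0.11, -0.0002 to 0.07, -0.02 to 0.07 and 0.02 to 0.09 on replicates 1 to 4. Without Hsp90b1 and Ufd1, a choice made after seeing the data, the median SD was 0.20 and the deviations were -0.17, 0.11, 0.06 and 0.09. Over the alternatives, 57 of 260 SDs of single genes moved by more than 1.5 times and 24 of 260 levels by more than the gene's SD, 19 of them with normexp correction and 5 with the mean of all probes.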

Other observations

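Beyond the ER genes above, 28 further genes had an ERSE or ERSE-II in the 300-base promoter, and 18 of them were measured. Of the 18, 9 were above background on all 4 arrays, beside 38.7% of all genes. These 9 were Ankmy2, Birc5, Cdc45, Foxd4, Ggct, Hnrnpa3, Nucb1, Rnf151 and Zfand2a. Zfand2a, a zinc finger protein that binds the proteasome, stood at 5.20 ± 0.14 (SD, n = 4) and Nucb1, a calcium-binding Golgi protein, at 3.14 ± 0.40. Derl3 and Ero1b, both ER genes with an ERSE, were above background on 1 array and on none.

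Spcs1, a signal peptidase subunit, repeated what the spots of Hsp90b1 showed on replicate 2. Its first spot read 5.44, 3.19, 5.46 and 4.91 on replicates 1 to 4 and had a local deviation of -0.98 on replicate 2. Its second spot, with a local deviation near 0 there, read 5.29, 5.49, 5.42 and 5.54. Spcs1 was named after its values were seen.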
